A study of Mus musculus with 20 samples.

Results

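The promoters that kept the most H3K4me3 after deletion of Ash2l in mouse fibroblasts are described here. Members were selected on their measured H3K4me3 reads. A member is an H3K4me3 region within 3000 bp of an annotated transcriptional start site (TSS) that met 2 conditions. In -HOT cells it held at least 100 scaled reads in iMEF1 and at least 400 in iMEF2. Its log2 ratio of +HOT over -HOT reads, with 1 added to both, was above -0.65 in iMEF1 and above -0.95 in iMEF2. Of 15584 promoter regions, 10564 met the read minima and 1418 also met both limits. These 1418 retained promoters were 13.4% of the regions over the read minima and 9.10% of all promoter regions, and they carried 1415 gene names. The other 9146 regions over the read minima are called the other promoters. Retained is meant as less reduced than elsewhere, because nearly every one of these regions had fewer H3K4me3 reads in +HOT than in -HOT cells.

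The cells were mouse embryo fibroblasts homozygous for a floxed Ash2l gene (Ash2l fl/fl) that express Cre-ER, a recombinase that becomes active when 4-hydroxytamoxifen (HOT) is added. +HOT cells had received 5 nM HOT for 5 days, which recombines exon 4 of Ash2l, and -HOT cells had received the vehicle ethanol over the same time. Both lines, iMEF1 (KO1) and iMEF2 (KO2), came from separate litters and were immortalized with an shRNA against p19Arf, a change that +HOT and -HOT cells share. There was 1 library per mark, line and condition, so 4 H3K4me3 and 4 H3K4me1 libraries were used, and the lines are the only replicates (n = 2). WT libraries with HOT, which would separate an effect of the drug from that of the deletion, were not analysed here. All 11 fibroblast markers tested (among them Col1a1, Pdgfra and Twist1) had a promoter H3K4me3 region, and at 10 of them it was over the read minima. In -HOT cells these regions held 77.3 to 1517 scaled reads in iMEF1 and 1180 to 4435 in iMEF2. A region of any strength was found at 6 of 12 epithelial, 5 of 10 endothelial, 7 of 10 neural and 3 of 10 skeletal muscle markers. No blood marker had one. None of the 12 epithelial, 11 blood or 10 skeletal muscle markers had a region over the read minima, against 4 of 10 endothelial markers and 1 of 10 neural markers.

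Trimethylation of lysine 4 of histone H3 (H3K4me3) marks the nucleosomes on both sides of the TSS of active genes and of most CpG islands. It is written by KMT2 complexes, in which a catalytic subunit (Kmt2a, Kmt2b, Kmt2c, Kmt2d, Setd1a or Setd1b) works with a core of Wdr5, Rbbp5, Ash2l and Dpy30. The core is needed for full activity, and demethylases of the Kdm5 family remove the mark. Monomethylation (H3K4me1) is the main form at enhancers and on the flanks of promoters, further from the TSS than the trimethylated core.

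The DNA of retained promoters is shown here through 3 short motifs of housekeeping promoters, because they were more frequent at the retained than at the deepest-loss promoters (shares follow with the motif content). Each stretch is the 150 bp immediately upstream of the TSS, written 5' to 3' on the strand of the gene, from the mm9 reference genome, with the motif in capitals. For each motif, the promoters shown are among those with the highest mean log2 H3K4me3 ratio whose stretch holds it. Each stretch also overlaps no annotated exon and ends at a start site of GENCODE (near-identical copies and uncharacterized genes set aside). Not every promoter was eligible for display, so the examples are not a strict ranking and a promoter with a higher ratio can be missing. The first 3 hold CCGGAAG, the core bound by ETS family factors, here written on the opposite strand as CTTCCGG. They are Ccnl2 (cyclin L2, chr4:155186448-155186597, plus strand), Zbtb33 (the zinc finger factor Kaiso, chrX:35542820-35542969, plus strand) and Chchd2 (a mitochondrial intermembrane space protein, chr5:130363341-130363490, minus strand).
Ccnl2: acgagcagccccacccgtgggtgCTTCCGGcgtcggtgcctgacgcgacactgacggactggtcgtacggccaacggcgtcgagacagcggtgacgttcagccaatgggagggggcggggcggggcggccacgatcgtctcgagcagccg
Zbtb33: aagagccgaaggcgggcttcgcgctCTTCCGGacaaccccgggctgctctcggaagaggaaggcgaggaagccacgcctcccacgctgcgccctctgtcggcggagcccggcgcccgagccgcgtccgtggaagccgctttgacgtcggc
Chchd2: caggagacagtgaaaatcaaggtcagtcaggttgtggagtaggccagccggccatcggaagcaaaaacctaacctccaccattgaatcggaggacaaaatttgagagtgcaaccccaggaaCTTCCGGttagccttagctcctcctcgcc
In Chchd2 the motif starts 29 bp upstream of the TSS, against 125 bp in Zbtb33 and 127 bp in Ccnl2. Ccnl2 held 403 reads in +HOT and 517 in -HOT iMEF1 cells, and 1081 in +HOT and 1576 in -HOT iMEF2 cells. Zbtb33 held 197 and 228 reads in +HOT and -HOT iMEF1 cells, and 610 and 994 in +HOT and -HOT iMEF2 cells. All 3 promoters kept between 61.4% and 86.4% of their reads in each line.

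The next stretches hold a palindrome of 10 letters with CGCG at its middle, given in capitals, which is found at promoters of many housekeeping genes. They belong to Abi1 (an adaptor of the WAVE actin regulatory complex, chr2:22895762-22895911, minus strand) and Rc3h2 (an RNA-binding ubiquitin ligase, chr2:37278424-37278573, minus strand).
Abi1: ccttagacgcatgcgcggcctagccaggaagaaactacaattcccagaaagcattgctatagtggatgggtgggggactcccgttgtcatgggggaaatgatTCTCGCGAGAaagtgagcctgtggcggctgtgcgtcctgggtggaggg
Rc3h2: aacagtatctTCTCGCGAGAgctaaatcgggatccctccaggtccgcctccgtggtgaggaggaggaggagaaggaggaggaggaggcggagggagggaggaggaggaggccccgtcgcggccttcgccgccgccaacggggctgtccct
The last one holds, in capitals, the palindromic site of NRF1, a factor of nuclear genes for mitochondrial proteins. It lies upstream of Mrpl32 (a protein of the large mitochondrial ribosomal subunit, chr13:14705305-14705454, minus strand).
Mrpl32: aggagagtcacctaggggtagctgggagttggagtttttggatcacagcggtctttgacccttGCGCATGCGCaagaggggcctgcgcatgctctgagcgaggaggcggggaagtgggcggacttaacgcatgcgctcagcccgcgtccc
Abi1 kept 79.8% of its H3K4me3 reads in iMEF1 and 66.6% in iMEF2, Rc3h2 kept 83.1% and 56.1%, and Mrpl32 kept 73.2% and 70.7%. These stretches are examples of retained promoters with the motif, which lies outside the H3K4me3 region at Ccnl2, Chchd2 and Abi1 and inside it at the other 3. A match of letters is not a measured binding site.

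The H3K4me3 values that chose the members are given as a description, with no test. The retained promoters kept a median of 69.6% of their reads in iMEF1 (range 63.7 to 111.75) and of 57.2% in iMEF2 (range 51.7 to 88.8). The other promoters kept a median of 49.9% and 38.6% in the same lines, and the 1418 of them with the deepest mean loss kept 28.2% and 16.4%. On the log2 scale the medians of the retained promoters were -0.52 ± 0.11 in iMEF1 and -0.81 ± 0.11 in iMEF2 (SD over the 1418 regions), against -0.998 and -1.37 for the other promoters. In reads, the median retained promoter held 324 in +HOT and 458 in -HOT iMEF1 cells, and 921 in +HOT and 1588 in -HOT iMEF2 cells. The median of the other promoters was 167 and 340 reads in +HOT and -HOT iMEF1 cells, and 490 and 1274 in +HOT and -HOT iMEF2 cells. Over all regions with a called H3K4me3 peak the scaled reads summed to 2441698 in +HOT and 4588434 in -HOT iMEF1 cells, and to 6978481 in +HOT and 17532750 in -HOT iMEF2 cells. The H3K4me3 values were scaled to equal coverage with no external standard, so the kept shares are relative to the coverage of each library.

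Even the retained group consisted mostly of promoters that the study's own loss threshold (a log2 ratio under -0.58) reaches in iMEF2. In that line 1363 of the 1418 lay under it, and in iMEF1 380 did, while 99.5% and 87.1% of all promoters over the read minima did so in the same lines. Past the limit of the rule, the background was 19.9% of promoters in iMEF1, 20.8% in iMEF2 and 13.4% in both. A further 686 promoters were past the iMEF1 limit only and 783 past the iMEF2 limit only. The ratio was higher in iMEF1 than in iMEF2 at 1408 of the 1418 retained promoters. This order is not particular to them. Over all 10564 promoters the median ratio was -0.93 in iMEF1 and -1.27 in iMEF2, and the limits of the rule differ in the same direction. Across the 10564 promoters the ratios of both lines had a Spearman rho of 0.87, and within the retained promoters, where the rule cuts the range, of 0.35. These correlations are over regions of the same libraries and carry no p.

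**Figure D1:**
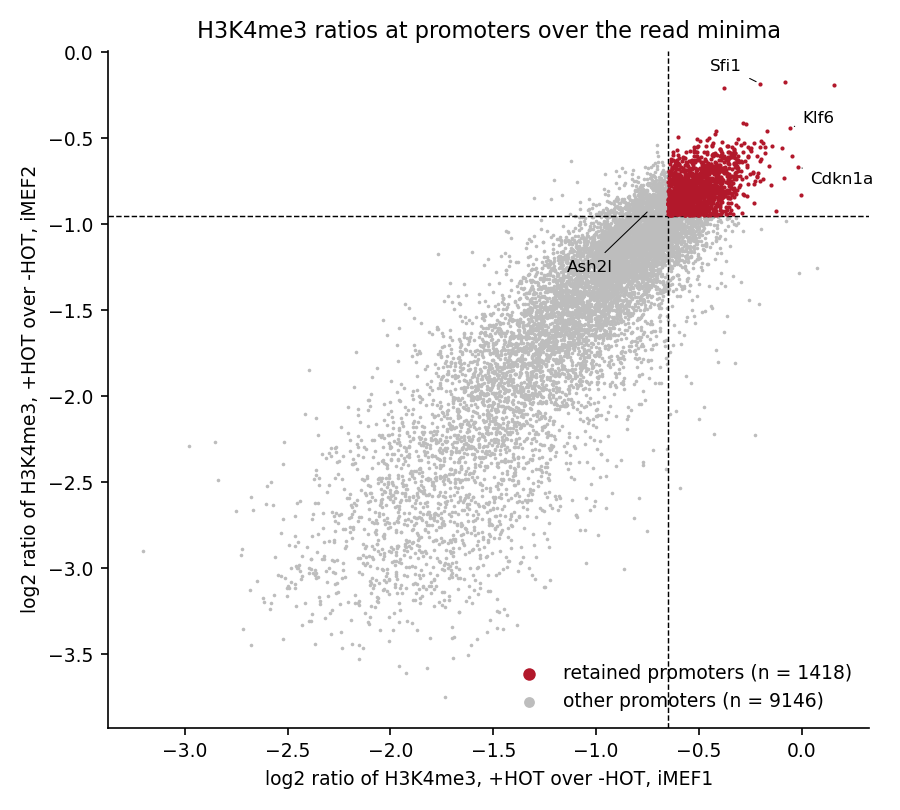
Each point is 1 promoter H3K4me3 region, with its log2 ratio of +HOT over -HOT reads in iMEF1 on the horizontal axis and in iMEF2 on the vertical axis, and the dashed lines are the limits of -0.65 and -0.95. The 1418 retained promoters fill the upper right corner, and the 9146 other promoters extend down to -3.20 in iMEF1 and -3.75 in iMEF2.

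Membership near the limits rests on few reads. From the reads alone, the counting error of a ratio at a retained promoter had a median of 0.10 log2 units in iMEF1 and 0.06 in iMEF2, and it does not cover variation between cultures. Of the retained promoters, 674 (47.5%) lay within 1 counting error of a limit, and 330 lay more than 2 counting errors inside both. Just inside the iMEF1 limit stood Nup188 (a nucleoporin), which held 408 reads in +HOT and 641 in -HOT cells of that line. Just outside it stood Herc1 (a ubiquitin ligase), with 337 reads in +HOT and 530 in -HOT cells, and both had a log2 ratio of -0.65 after rounding. At the iMEF2 limit the nearest member was Fbxw17, with 582 reads in +HOT and 1125 in -HOT cells, and the nearest promoter outside was Ppp5c, with 755 and 1460. Neighbours across a limit therefore did not differ beyond their counting error.

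The promoters with the highest mean log2 ratio over both lines, after predicted genes, cDNA clones and microRNA genes were set aside, came from several pathways. Sfi1 (a centrosomal protein of spindle assembly) stood at the top, with 548 reads in +HOT and 631 in -HOT iMEF1 cells and 1270 in +HOT and 1442 in -HOT iMEF2 cells. It kept 86.9% and 88.1% of its reads, and no other of the 12 kept more in iMEF2. Klf6 (a zinc finger transcription factor of the Krüppel-like family) held 975 and 1013 reads in +HOT and -HOT iMEF1 cells, and 2531 and 3432 in +HOT and -HOT iMEF2 cells. Its level in iMEF1 was within 1 counting error (0.06) of no change, with a log2 ratio of -0.05, and in iMEF2 the ratio was -0.44. Phf23 (a protein with a PHD finger) held 588 and 661 reads in +HOT and -HOT iMEF1 cells, and 1461 and 2006 in +HOT and -HOT iMEF2 cells.

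Phlda3, Susd6 and Cdkn1a followed, all of them known as targets of p53, and all 3 kept far more in iMEF1 than in iMEF2. Cdkn1a encodes the CDK inhibitor p21. It held 707 reads in +HOT and 716 in -HOT iMEF1 cells, a kept share of 98.8%, but 1619 in +HOT and 2572 in -HOT iMEF2 cells, a kept share of 62.9%. Phlda3 (a repressor of Akt signaling) kept 96.9% in iMEF1, with 1022 reads in +HOT and 1055 in -HOT cells. In iMEF2 Phlda3 kept 65.8%, with 2212 reads in +HOT and 3360 in -HOT cells. Susd6 (a membrane protein) kept 93.5% in iMEF1 and 67.9% in iMEF2.

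Hnrnpc (an RNA-binding protein of nascent transcripts) differed less between the lines, with 411 reads in +HOT and 496 in -HOT iMEF1 cells and 1183 in +HOT and 1582 in -HOT iMEF2 cells. Dync1i2 (an intermediate chain of cytoplasmic dynein) was like it, and kept 82.1% in iMEF1 and 75.1% in iMEF2. Ppp1cb (a catalytic subunit of protein phosphatase 1) kept 90.6% and 68.4% in the same lines. H3f3b, a gene for the replacement histone H3.3, held 446 reads in +HOT and 511 in -HOT iMEF1 cells, and 1232 in +HOT and 1766 in -HOT iMEF2 cells. Rps23 (a protein of the small ribosomal subunit) kept 87.6% and 69.4%, and Tcp1 (a subunit of the CCT chaperonin) kept 88.4% and 68.2%. In each of these 12 promoters both +HOT libraries were lower than the -HOT library of their line. The Ash2l promoter itself was not retained, with 281 reads in +HOT and 469 in -HOT iMEF1 cells (59.9% kept) and 976 in +HOT and 1839 in -HOT iMEF2 cells (53.1% kept).

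**Figure D2:**
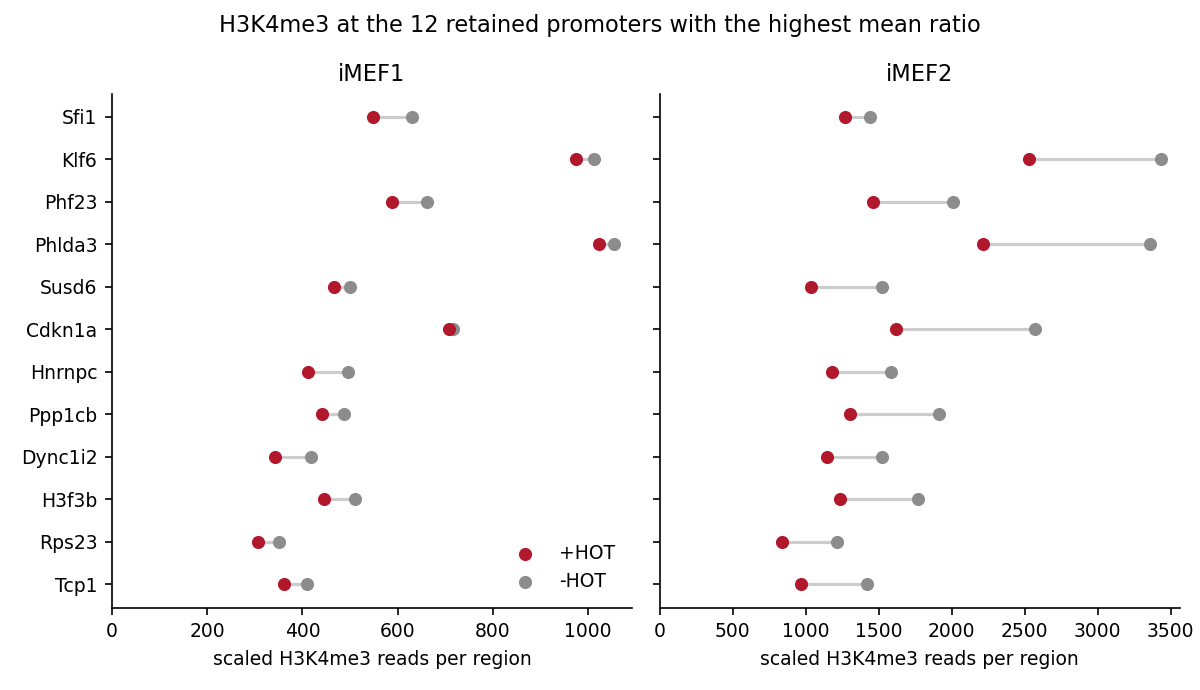
Scaled H3K4me3 reads (horizontal axis) are plotted for the 12 named promoters with the highest mean ratio, in +HOT (colored) and -HOT (gray) cells, with iMEF1 and iMEF2 in separate panels. Cdkn1a, with 707 and 716 reads in +HOT and -HOT iMEF1 cells, shows the smallest gap in that line and a wide one in iMEF2, with 1619 and 2572 reads.

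The lines ranked some retained promoters differently. The largest excess of the iMEF1 over the iMEF2 ratio was found at Stat2 (a transcription factor of interferon signaling), B2m (the light chain of MHC class I) and Cdkn1a. Stat2 held 321 and 322 reads in +HOT and -HOT iMEF1 cells, but 687 and 1223 in +HOT and -HOT iMEF2 cells. B2m held 316 and 344 reads in +HOT and -HOT iMEF1 cells, and 827 and 1572 in +HOT and -HOT iMEF2 cells. Only 10 retained promoters ranked the other way, and the largest such differences were at Mir6935, Serf2 and Uba1. Uba1 (the E1 enzyme that activates ubiquitin) kept 64.8% in iMEF1 and 66.7% in iMEF2, and Serf2 kept 65.9% and 71.0%. With 1 library per line and condition, a difference between lines and one between library preparations cannot be told apart.

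The strongest retained promoters were wide regions. The region annotated to Mir125b-1, a microRNA gene, held 1208 reads in +HOT and 1546 in -HOT iMEF1 cells, and 3937 in +HOT and 5890 in -HOT iMEF2 cells. This region was also the widest of the retained set, at 8210 bp. Amotl2 (an angiomotin-like scaffold protein of Hippo signaling) held 1168 and 1686 reads in +HOT and -HOT iMEF1 cells. Fat4 (a giant cadherin), Hnrnpa2b1 (an RNA-binding protein) and Smad6 (an inhibitor of BMP signaling) also belonged to the 6 strongest. Prrx1, a transcription factor of limb and other mesenchyme, spanned 7217 bp and kept 77.5% in iMEF1 and 52.1% in iMEF2. At the narrow end, Sfi1 spanned 946 bp, Aars2 (mitochondrial alanyl-tRNA synthetase) 983 bp and Dcxr 1010 bp. Both wide and narrow regions were thus found among the members.

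Stronger promoters were retained more often, a relation that shares the -HOT reads with the rule. When the 10564 promoters were split into 5 equal parts by their mean -HOT rank, 1.47% of the weakest part were retained, followed by 8.80%, 15.2%, 19.1% and 22.5% of the strongest. The Spearman rho of -HOT reads and ratio was 0.50 in iMEF1 and 0.49 in iMEF2. The reads per kb in -HOT cells had a median of 199 at the retained and 161 at the other promoters in iMEF1, and of 711 and 605 in iMEF2. Since the groups differ in strength, some of the comparisons that follow are also given within these parts. They are descriptions with no test, because regions of the same libraries are not replicates.

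Retained regions lay further into the gene. Their centre was a median of 529 bp from the TSS, against 335 bp for the other and 208.5 bp for the deepest-loss promoters. The order was the same with the nearest start in the GENCODE annotation (408, 237 and 124 bp). The centre was downstream of the TSS in 92.9% of the retained, 86.3% of the other and 74.3% of the deepest-loss promoters. In 71.1% of the retained the authors' annotation placed the centre in an intron, against 51.0% of the other promoters. The retained regions reached 542 bp upstream of the TSS (median), against 691 bp, and 1653.5 bp downstream, against 1390 bp. Within the strongest part the distances of the centre were 542 bp at retained and 403 bp at other promoters.

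Within the parts of signal strength, the upstream edge differed more between the groups than the downstream edge. In the middle part of signal strength, the upstream reach was 422 bp at retained and 685 bp at other promoters, and the downstream reach 1463 and 1424 bp. Of 224 promoter regions that did not reach their TSS from the 3' side, 60 (26.8%) were retained, and of 752 that extended less than 100 bp beyond it, 198 (26.3%). The share was 10.3% where the region extended 500 to 1000 bp and 11.6% where it extended further. The same order was seen in every part of signal strength, with 52.2% retained among regions with an upstream reach under 100 bp and 13.9% among those with 500 bp or more in the fourth part, and 43.3% and 20.4% in the strongest part. The region borders were called on these same H3K4me3 libraries, so the shape of a region is not independent of its reads.

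**Figure D3:**
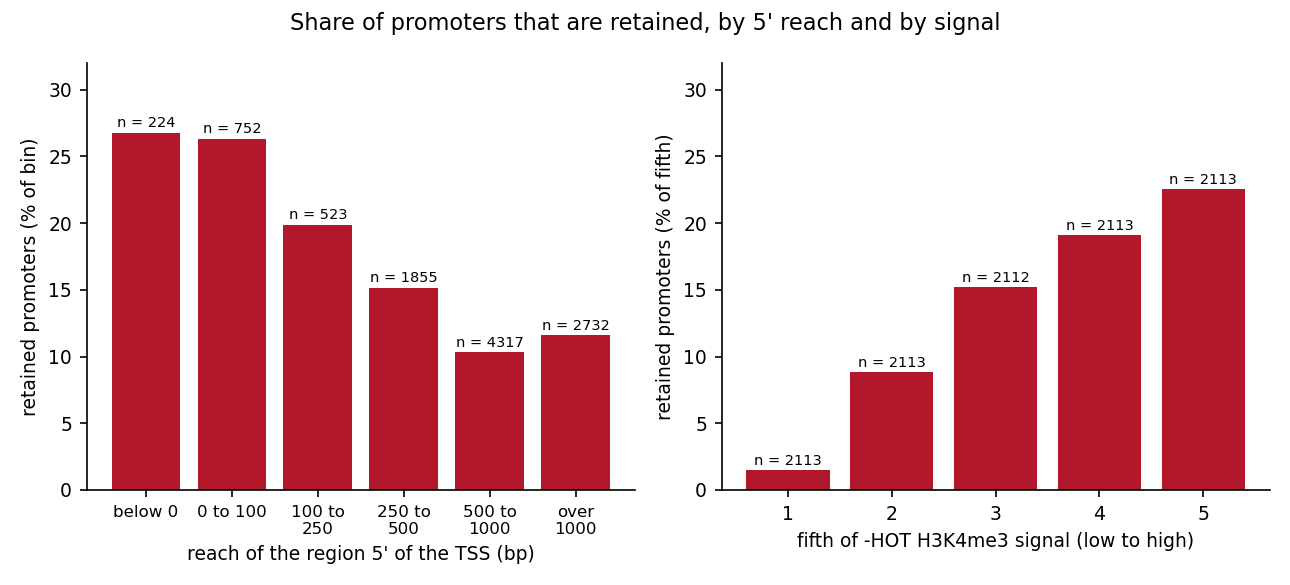
Bars give the percentage of promoters over the read minima that were retained. The left panel divides them by how far the H3K4me3 region extends upstream of the TSS in bp, and the right panel by part of -HOT signal strength. Of all promoters over the read minima, 13.4% were retained. The share is 26.8% for regions that do not reach the TSS and 10.3% at 500 to 1000 bp, and it increases from 1.47% to 22.5% with signal.

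A separate H3K4me3 region on the 5' side was more frequent at the retained promoters. Within 1000 bp upstream of the region another one was called at 356 (25.3%) of the retained, 1041 (11.6%) of the other and 6.48% of the deepest-loss promoters. In each part of signal strength the share was higher at the retained than at the other promoters, with 18.7% and 8.33% in the strongest part. On the 3' side the shares were 7.61% at both the retained and the other promoters, with no common direction within the parts. At the 356 retained promoters the gap had a median of 137 bp. The upstream neighbour was small. It held a median of 18 reads in +HOT and 58.9 in -HOT iMEF1 cells, and 56.5 in +HOT and 277 in -HOT iMEF2 cells. Its median log2 ratio was -1.38 in iMEF1 and -1.99 in iMEF2, and that of the neighbours at the other promoters, which the rule likewise did not use, was -1.22 and -2.06. The retained regions beside these neighbours, selected for a high ratio, stood at -0.49 and -0.78. When both regions were summed, 199 of the 356 still met the limits. Summing at every promoter left 1267 retained promoters in all, 1261 of them members of the original set.

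The genes of retained promoters were shorter, also within each part of signal strength. They had a median length of 23207 bp, against 26735 bp for the other and 34022 bp for the deepest-loss promoters, and a first exon of 196, 209 and 224 bp. A start on the opposite strand nearby was annotated at 18.4% of the retained, 14.9% of the other and 7.13% of the deepest-loss promoters, but within 4 of the 5 parts of signal strength the share was lower at the retained than at the other promoters. Of the retained promoters 1365 belonged to protein-coding genes, 35 to noncoding RNA genes (of 359 over the read minima), 9 to snoRNA genes (of 18) and 9 to pseudogenes. Between chromosomes the retained share ranged from 9.88% (chromosome 17) to 17.6% (chromosome 18). Altogether 5 regions matched another place in the genome over at least 50% of their length at 95% identity or more: Srp54a, Zfp971, Setdb1 and 2 regions of 6820431F20Rik. Reads there cannot be assigned to 1 copy with certainty.

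The motifs of the sequences printed above were counted at all promoters. In a window from 250 bp before the TSS to 50 bp after it, on either strand, CCGGAAG was found at 25.5% of the retained, 18.3% of the other and 7.56% of the deepest-loss promoters, and at 15.3% of all promoters. The 10-letter palindrome of the Abi1 and Rc3h2 stretches was found at 2.13%, 0.878% and 0.0720% of the same groups and at 0.795% of all. The NRF1 site of the Mrpl32 stretch was found at 2.99%, 2.17% and 0.865%, and at 1.86% of all. None of these motifs contains another, and the shares are over promoters with a strand in GENCODE (1406 of the retained). Within the parts of signal strength CCGGAAG was more frequent at the retained than at the other promoters in 4 of 5, with 29.2% and 21.6% in the middle part, while in the weakest part, with only 31 retained promoters, it was found at 3.33% and 12.1%. The palindrome and the NRF1 site were more frequent at the retained promoters in 3 of the 5 parts, but not in the weakest and the middle part, where the palindrome was found at 0.314% and 0.678% and the NRF1 site at 2.52% and 2.71% of the middle part.

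Of the other promoter motifs searched, the GC box was less frequent and TATAAA more frequent at the retained than at the other promoters in every part of signal strength. The GC box GGGCGG, bound by SP and KLF factors, was found at 66.3% of the retained and 72.1% of the other promoters (68.5% of all). TATAAA, the core of the TATA box, was found at 7.75% and 5.55% (6.73% of all), and in a longer window, from 1000 bp before to 100 bp after the TSS, at 42.1% and 36.9%. The CCAAT motif, bound by NF-Y, was found at 38.1% and 37.5% (37.6% of all). CACGTG, the E-box of Myc and USF factors, was found at 9.96% and 10.2% (9.73% of all). TGANTCA, bound by AP1, was found at 3.49% and 3.77% (4.48% of all), and in the longer window at 20.8% and 20.6%, so its direction turned. The CpG observed over expected ratio had a median of 0.84 at the retained, 0.80 at the other and 0.74 at the deepest-loss promoters, but 0.63, 0.62 and 0.58 in the longer window. These medians move with signal strength, and within the parts the retained promoters were higher than the other promoters in 3 of 5 near the TSS and lower in all 5 in the longer window (0.57 and 0.61 in the middle part). The GC content of the whole region was 51.4%, 53.8% and 58.3%, and it was lower at the retained than at the other promoters in each part. No test was made of these shares, and their part in the H3K4me3 values was not tested.

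The gene lists compared were chosen with earlier results of these data known, so their counts describe the retained set and test nothing. Of the 10177 gene names over the read minima, 13.9% had a retained promoter. Among the 33 proteasome subunits, 23 (69.7%) had one. Psmd6, a subunit of the regulatory particle, was the highest of them, with 299 reads in +HOT and 401 in -HOT iMEF1 cells and 915 in +HOT and 1271 in -HOT iMEF2 cells. Psmb2, a subunit of the catalytic core, was the lowest, with 338 and 515 reads in +HOT and -HOT iMEF1 cells and 941 and 1717 in +HOT and -HOT iMEF2 cells. Protein quality control was also represented by 17 of 64 chaperones (26.6%, with Hspa8, Hsp90aa1 and Cct2 among them) and 7 of 22 ubiquitin and stress genes.

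The machinery of gene expression contributed the largest number of members. Splicing and RNA-binding factors had 42 of 114 (36.8%), cytosolic ribosomal proteins 25 of 63 (39.7%), translation factors 23 of 60 (38.3%) and mitochondrial ribosomal proteins 20 of 68 (29.4%). Eef1a1, the elongation factor that delivers aminoacyl-tRNA, kept 80.7% in iMEF1, with 473 reads in +HOT and 586 in -HOT cells. In iMEF2 it kept 65.8%, with 1358 and 2065 reads. Srsf3, a splicing factor, was the lowest retained member of its list and kept 64.4% and 52.5%. Subunits of the respiratory chain and ATP synthase had 25 of 64 (39.1%). Uqcrc1 of complex III kept 83.5% and 65.6%, Ndufs4 of complex I 64.3% and 64.5%, and Cox5b of complex IV 66.7% and 53.1%. All of these lists stood above the background share, and most of their members were nevertheless not retained, apart from the proteasome.

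Genes for H3K4 demethylases and for KMT2 complex subunits were also compared with the background of 13.9% of gene names. Of the 4 H3K4 demethylase genes over the read minima, Kdm1a, Kdm5b and Kdm5c were retained. Kdm5c, an X-linked H3K4me3 demethylase, held 515 and 592 reads in +HOT and -HOT iMEF1 cells, and 1365 and 2116 in +HOT and -HOT iMEF2 cells. Kdm5b held 500 and 651 reads in +HOT and -HOT iMEF1 cells, and 1225 and 1952 in +HOT and -HOT iMEF2 cells. Kdm1a, which removes mono- and dimethylation, kept 71.1% and 60.1%. Of 19 genes for KMT2 complex subunits, 6 (31.6%) were retained, namely Cxxc1, Hcfc2, Kdm6a, Kmt2c, Kmt2d and Wdr82. Kmt2c, a monomethyltransferase of enhancers, held 403 and 538 reads in +HOT and -HOT iMEF1 cells, and 906 and 1587 in +HOT and -HOT iMEF2 cells. Neither Ash2l nor the other subunits of the shared core were among the 6.

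Cell cycle inhibitors and p53 target genes had 10 of 24 retained (41.7%). Beside Cdkn1a and Phlda3 these included Mdm2, Cdkn2b, Ccng1, Btg2, Sesn2, Gadd45b, Gadd45g and Plk2. Plk2 (a stress-induced kinase) kept 74.3% in iMEF1 and 57.1% in iMEF2, and Gadd45b kept 66.7% and 56.6%. By contrast, replication and cell cycle genes had 5 of 39 (12.8%), near the background of 13.9%. They were Ccnd2, Ccnd3, Cdk4, Aurka and Orc6, and Cdk4 kept 65.1% and 63.8%. In housekeeping controls 6 of 15 were retained, with Actb at 649 and 851 reads in +HOT and -HOT iMEF1 cells and 1607 and 2881 in +HOT and -HOT iMEF2 cells.

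Of the remaining groups, actin and cytoskeleton genes stood well above the background of 13.9%, with 10 of 34 retained (29.4%). The others had shares from below to somewhat above that background. Among canonical and variant histone genes 2 of 32 were retained, and both (H3f3a and H3f3b) encode the replication-independent variant H3.3. H3f3a held 512 and 632 reads in +HOT and -HOT iMEF1 cells, and 1480 and 2308 in +HOT and -HOT iMEF2 cells. Fibroblast and matrix genes had 3 of 31 (Col5a2, Mmp14 and Tgfb1i1), secreted factors of senescent cells 1 of 19 (Cxcl12), and glycolysis enzymes 1 of 16 (Eno1). Of the 4 endothelial markers over the read minima and the 1 neural marker, none was retained. Col5a2, a chain of type V collagen, had the highest mean ratio of the 3 retained fibroblast and matrix genes. It held 699 and 878 reads in +HOT and -HOT iMEF1 cells and 2464 and 3861 in +HOT and -HOT iMEF2 cells. Mesenchymal transcription factors had 4 of 25 (Prrx1, Snai2, Tbx18 and Tead1), and AP1 and immediate early genes 4 of 22 (Btg2, Fosl2, Ier5 and Klf6). MicroRNA and snoRNA genes had 22 of 99 (22.2%), whose promoters often are those of a host gene. Over all 26 lists, 255 genes had a retained promoter. Of the retained genes 347 had several promoter regions, and at 78 genes a retained region stood beside another one over the read minima that was not retained.

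**Figure D4:**
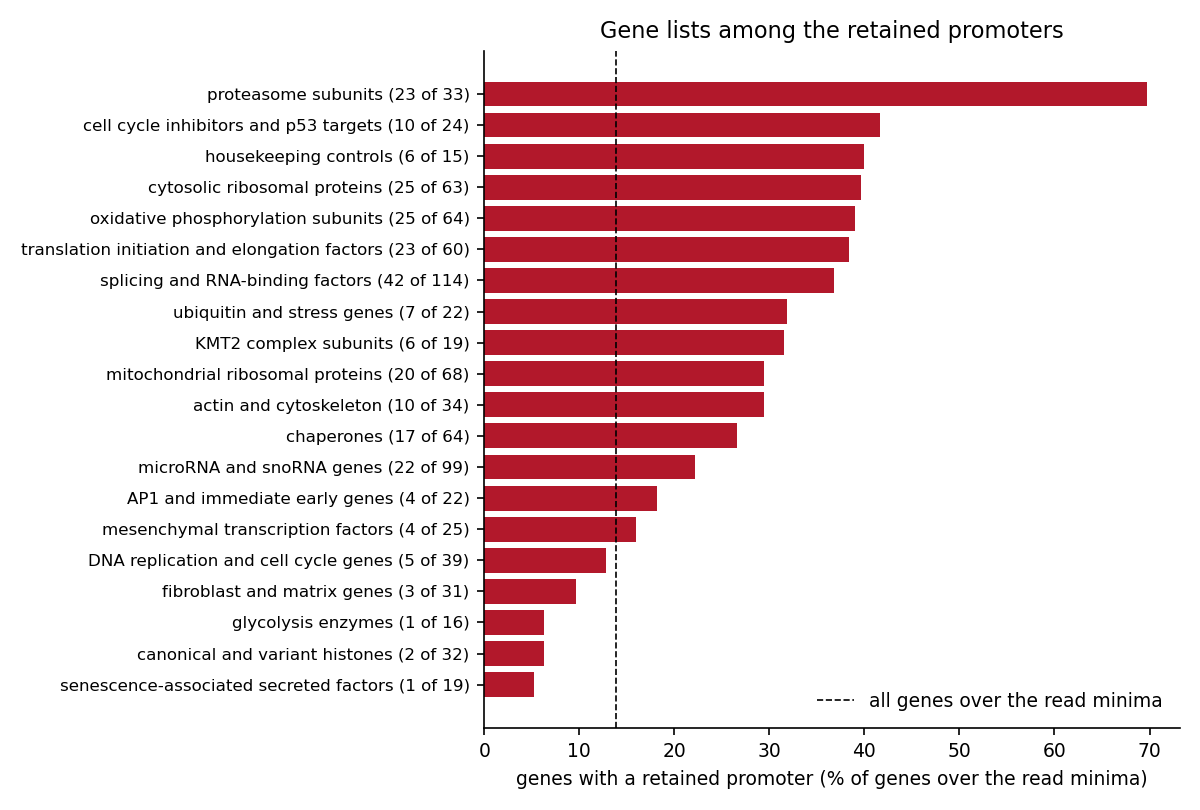
Bars give the percentage of genes over the read minima that had a retained promoter, for each gene list with at least 15 such genes. The numbers of genes stand beside the list names, and the dashed line is at 13.9% of all gene names. The proteasome stands at 69.7% (23 of 33), while histone genes stand at 6.25% (2 of 32). Shorter lists, such as the H3K4 demethylases (3 of 4), are not drawn.

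H3K4me1 was measured in libraries that the rule did not use, and it could be tested. limma was fitted to all 78691 H3K4me1 regions with enough reads, with the line as a block. The p-values were adjusted by the Benjamini-Hochberg method with a threshold of 0.05. Because the lines are the only replicates, the SE and p of a region rest mainly on variance pooled over all tested regions (15.1 prior degrees of freedom). Of these regions 14.8% rose and 2.57% fell in +HOT cells. At the retained promoters 1960 tested H3K4me1 regions overlapped an H3K4me3 region, of which 1352 (69.0%) rose, 58 (2.96%) fell and 550 did not pass the test. At the other promoters 71.9% of the 11273 overlapping regions rose and 2.59% fell. The rise of H3K4me1 was thus far above the background of all regions at both groups of promoters, and the shares at retained and other promoters were close. The count at retained promoters was 609 risen regions and 1 fallen region without the block of the cell line, and 601 and 3 without the read minimum. Without the block 31.1% of the regions at retained and 36.3% of those at other promoters rose. Both iMEF1 H3K4me1 columns are undivided reads, and with the median of all tested regions set to 0 in each line, 947 regions at retained promoters rose and 72 fell.

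Counted by promoter, 1138 (84.5%) of the 1346 retained promoters with a tested region had a risen one, and so had 6926 (84.5%) of the other promoters. A fallen region was found at 58 retained promoters, and 53 of these also had a risen one. When all H3K4me1 regions at a promoter were summed, the median retained promoter held 123 reads in +HOT and 64 in -HOT iMEF1 cells, and 156 in +HOT and 82 in -HOT iMEF2 cells. The median log2 ratio was 0.97 ± 0.53 in iMEF1 and 0.99 ± 0.59 in iMEF2 (SD over 1360 promoters). At the other promoters it was 1.06 and 1.05, and over all tested H3K4me1 regions 0.30 and 0.08. Retained minus other promoters, the difference was -0.10 in iMEF1 and -0.06 in iMEF2, small beside the spread over promoters, and with 2 lines an exact permutation test cannot give a p below 0.5. The sum was higher in +HOT cells of both lines at 1328 (97.6%) of the 1360 retained and at 8150 of the 8583 other promoters. The H3K4me3 and H3K4me1 ratios of the retained promoters had a Spearman rho of -0.03 in iMEF1 and 0.01 in iMEF2 across promoters, over the narrow range of H3K4me3 ratios that the rule leaves, and of -0.02 and 0.10 over all promoters over the read minima.

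Where H3K4me1 rose depended on the position of the region. With its centre 0 to 500 bp downstream of the TSS, 96.4% of the regions at retained promoters rose, and at 500 to 1000 bp 93.3%, against 91.6% and 85.7% at other promoters. At 1000 to 2000 bp the shares were 65.4% and 58.8%, and at 2000 to 5000 bp 35.9% (74 of 206) and 206 of 643. Upstream, at -500 to 0 bp, the order was the reverse, with 67.7% at retained and 81.0% at other promoters. The falls lay mostly at the downstream edge, with 10.2% of retained and 9.18% of other regions at 2000 to 5000 bp. Regions with at least 50% of their length inside the H3K4me3 region rose in 76.8% at retained and 78.9% at other promoters, and those at its edge rose in 11.1% and 13.4% and fell in 15.8% and 14.5%. No test of these differences between the groups of promoters was made.

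**Figure D5:**
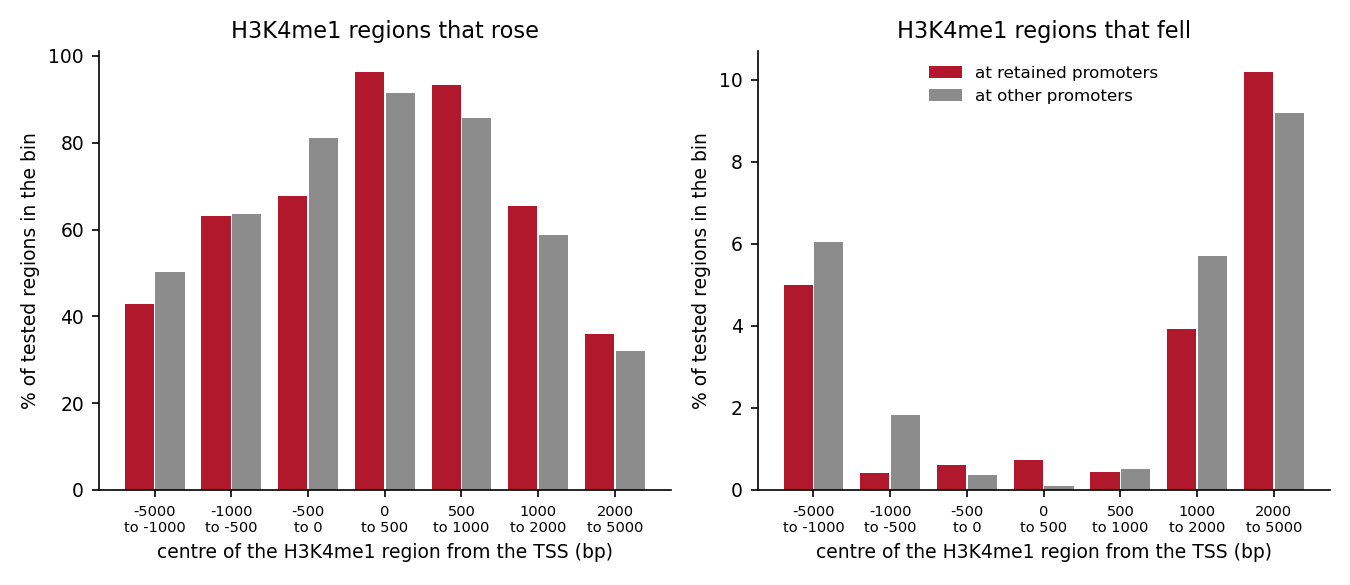
Bars give the percentage of tested H3K4me1 regions that rose (left) or fell (right) in +HOT cells by the distance of their centre from the TSS in bp, at retained (colored) and other (gray) promoters. At retained promoters 96.4% rose at 0 to 500 bp and 35.9% at 2000 to 5000 bp, where 10.2% fell.

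The largest rises among retained promoters began from very low H3K4me1. At Rbm27 (an RNA-binding protein) the region held 21 and 2 reads in +HOT and -HOT iMEF1 cells, and 27.3 and 0 in +HOT and -HOT iMEF2 cells. The limma log2 fold change was 3.85 ± 0.34 (SE, adjusted p = 1.3e-06) on the scale with 1 added. At Ier5l (an immediate early response gene homolog) it was 3.82 ± 0.26 (adjusted p = 3.7e-07), with 52 and 4 reads in +HOT and -HOT iMEF1 cells and 92.7 and 4 in +HOT and -HOT iMEF2 cells. On the same log2 scale Psmd3, a proteasome subunit, rose by 3.56, Zfp36l2 (an mRNA decay factor) by 3.52, Ddx6 (an RNA helicase of P-bodies) by 3.48 and Tmem260 by 3.39. Vps29 (a retromer subunit) rose by 3.35 and Smu1 (a splicing factor) by 3.33. The call at Vps29 was lost without the block. All 8 lay inside their H3K4me3 region, at which Ier5l kept 64.1% and 63.6% of its H3K4me3 reads.

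The falls were smaller. Tcp1 showed both directions within 1 H3K4me3 region of 1828 bp. The H3K4me1 region centred 684 bp downstream of its TSS held 55 and 8 reads in +HOT and -HOT iMEF1 cells and 80.9 and 6 in +HOT and -HOT iMEF2 cells, and rose by 3.09 ± 0.26 (SE, limma adjusted p = 9.7e-07). The one centred 1670 bp downstream held 10 and 46 reads in +HOT and -HOT iMEF1 cells and 19.1 and 39 in +HOT and -HOT iMEF2 cells, and fell by 1.54 on the log2 scale (SE 0.27, limma adjusted p = 0.0006). The next largest falls were at Ehmt1 (an H3K9 methyltransferase), by 1.28, Scfd1, by 1.23, Hnrnpk, by 1.18, Dynll1, by 1.17, Pabpn1 and Cog4, each by 1.13, and Snhg17, by 1.11. Without the read minimum none of the 8 falls passed the test, and without the block only that at Tcp1 did. The fall at Ehmt1 was also lost with edgeR and, like that at Snhg17, with a mean-variance trend in limma.

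At the promoters with the highest H3K4me3 ratio, H3K4me1 rose at Susd6, by 3.32 ± 0.25 (SE, limma adjusted p = 4.7e-07), with 24 and 1 reads in +HOT and -HOT iMEF1 cells and 39.1 and 4 in +HOT and -HOT iMEF2 cells. A second region at Susd6 did not pass the test (0.33, limma adjusted p = 0.44). H3K4me1 rose at Hnrnpc by 2.04, with a second region that did not pass (-0.21, limma adjusted p = 0.66), at Rps23 by 2.08 and at Ppp1cb by 1.47, the last a call that was lost without the read minimum. At Cdkn1a 5 regions were tested. The one centred 1050 bp downstream of the TSS rose by 2.95 ± 0.30, with 27 and 5 reads in +HOT and -HOT iMEF1 cells and 50 and 3 in +HOT and -HOT iMEF2 cells. The one at the downstream edge, centred at 2797 bp, had a log2 fold change of -0.75 (limma adjusted p = 0.043). That call was lost with edgeR, without the block, without the read minimum and with a mean-variance trend in limma. The remaining 3 regions did not pass the test. Phf23 fell by 0.81 at its downstream edge (limma adjusted p = 0.024), and this call was lost in the same settings as the fall at Cdkn1a. At Klf6 (0.64, limma adjusted p = 0.081), Dync1i2 (0.68, limma adjusted p = 0.075) and H3f3b (0.25, limma adjusted p = 0.57) the regions did not pass the test. Sfi1 had no tested H3K4me1 region, and neither had Phlda3, which lies in a part of chromosome 1 whose H3K4me1 rows were not used. At Ash2l, the region centred at -660.5 bp (upstream) rose by 1.64 (limma adjusted p = 9.6e-05), and the one downstream stood at 0.07 (limma adjusted p = 0.89).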

How the data were processed

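H3K4me3 and H3K4me1 ChIP-seq of the KO lines iMEF1 and iMEF2 was used (8 libraries of 20 in the series, fragments of about 300 bp). Libraries of WT cells and of input DNA were left out. Per the submitters' processing notes and the study's methods, the authors aligned reads to mm9 with BWA, processed them with SAMtools and Picard, called peaks with MACS2 (narrow for H3K4me3, broad for H3K4me1) and annotated regions with Homer. The deposited values are read counts per region. In 3 of the 4 pairs of +HOT and -HOT libraries 1 column was divided by a constant, and is a scaled signal: the authors' -HOT H3K4me3 counts were divided by 1.333 in iMEF1 and 1.01 in iMEF2, and the +HOT H3K4me1 counts by 1.1 in iMEF2. Both deposited iMEF1 H3K4me1 columns are raw counts with no divisor. The 6 deposited log2 columns of the authors' own +HOT against -HOT comparisons were not used. H3K4me1 rows from 19197749 to 145960211 on chromosome 1 were not used because the region coordinates of the tables of both lines do not match there, which left 46 retained promoters without H3K4me1. Totals were 7939532 and 6157647 H3K4me1 reads in +HOT and -HOT iMEF1 cells, and 8225505 and 7156632 in +HOT and -HOT iMEF2 cells.

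Members were selected as given in the report. The members and the gene lists were chosen with earlier results of these data known. H3K4me1 was tested with limma 3.58.1 (R 4.3.3) on log2(value + 1) over regions whose value exceeded 20 in at least 1 condition of each line, with the line as a block. The pairing comes from the cell line, and deviations of the same line correlated at 0.58. The fit was tested on simulated data in which both lines had the same mean and the same change, so no line-specific change was simulated. edgeR 4.0.16 (quasi-likelihood, on reads recovered from the scaled values), other read minima, pseudocounts, windows and limits, and omission of either line were alternatives. Overlap meant at least 1 bp. The TSS was placed with the authors' distance from the region centre, and the strand came from GENCODE vM1. Of 15225 authors' start sites with a strand, 13911 (91.4%) lay within 100 bp of a GENCODE start. Copies were found with minimap2 2.31. Genes were named by fixed rules: the 12 highest mean ratios, the highest, median and lowest member of each list, the 8 largest H3K4me1 rises and falls, the 3 promoters on each side of a limit, the 3 largest differences between lines in each direction, the 6 strongest, widest and narrowest regions, and Ash2l. Other members named in lists were chosen after their values were seen. Counting errors cover reads only, and reads without molecular identifiers are not independent molecules.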

Additional observations from a re-analysis of the deposited data

Results flagged for a closer look

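At 6820431F20Rik, annotated as a cadherin 11 pseudogene, the lines moved in opposite directions at the H3K4me3 region on chromosome 8 from 20019648 to 20020740 (mm9). It held 306 reads in +HOT and 274 in -HOT iMEF1 cells, a log2 ratio of 0.16, and 793 in +HOT and 905 in -HOT iMEF2 cells, a log2 ratio of -0.19. The counting error was 0.11 in iMEF1 and 0.07 in iMEF2. This was the only retained promoter with a ratio above 0 in either line, and the difference between the lines was not tested. A second retained region of the same name on chromosome 8, from 19892340 to 19893585, held 269 reads in +HOT and 284 in -HOT iMEF1 cells, and 692 in +HOT and 779 in -HOT iMEF2 cells. Each region has 2 further near-identical places in the genome, and the part of reads that map to several copies was not tested. H3K4me1 rose at both, by 2.43 ± 0.27 (SE, limma adjusted p = 6.8e-06) and by 3.12 ± 0.31 (limma adjusted p = 3.1e-06).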

How the results depend on the processing

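The number of retained promoters (1418) was 2470 with limits 0.1 lower and 648 with limits 0.1 higher, and with 1 line alone it was 2104 (iMEF1) to 2201 (iMEF2). It was 1466 with a pseudocount of 5, 1427 and 1394 with read minima of 50 and 200 or of 200 and 800, and 1377 with equal distances above the median of each line, of which 1291 were members. With the 5' region summed, an alternative chosen after seeing the data, it was 1267. Of the H3K4me1 regions at retained promoters, 1352 rose, against 609 with no replicate block and 601 with no read minimum, and 1443 to 1486 regions were past a log2 ratio of 0.58 in 1 line alone. The 58 falls were 1 with no replicate block, 3 with no read minimum, 19 at a minimum of 50 reads, 36 when limma modeled a trend, 21 with at least 50% of the region inside, and 55 (iMEF1) to 109 (iMEF2) past -0.58 in 1 line alone. edgeR with the block called 1485 rises and 40 falls. The median H3K4me1 log2 ratio of all tested regions was 0.30 in iMEF1 and 0.08 in iMEF2, and with it set to 0 there were 947 rises and 72 falls at retained promoters. The CpG difference between retained and other promoters, 0.042 near the TSS, was 0.014 in the window from 1000 bp before to 100 bp after the TSS and 0.023 over the whole region. In that longer window the TGANTCA difference turned to 0.26 percentage points, against -0.28, and those of TATAAA (5.16, against 2.20), the NRF1 site (1.36, against 0.82) and CACGTG (-0.79, against -0.23) grew. The cause of these shifts was not tested.

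For the numbers of promoters and H3K4me1 regions, the summed H3K4me1 difference, the distance to the TSS, the CCGGAAG share and the gene lists, the 26 other alternatives kept their direction and, within 1.5 times or 1 SD, their size. The retained set is bounded by thresholds inside a continuous distribution, depth limits the weaker promoters most, and with 1 library per line and condition neither culture nor preparation effects can be separated from the line.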
